A study of Sus scrofa with 8 samples.

Results

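HMGA2 and most of the genes grouped with it here are growth genes of the embryo that are low in most adult tissues and return in many tumours. The group was set by name as HMGA1, HMGA2, IGF2BP1, IGF2BP2, IGF2BP3 and LIN28B, with HMGA2 chosen by its FPKM, which were much lower in differentiated than in undifferentiated cells. Rows whose gene name equalled a member were taken, and of repeated names the row with the highest mean. This found 4 of the 6 members, HMGA1, HMGA2, IGF2BP2 and LIN28B, among the 25285 genes of the table. IGF2BP1 is described from a row named through an Ensembl identifier table, outside that rule, and IGF2BP3 is not analysed here.

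The values come from RNA sequencing of primary cells of pig skeletal muscle, strain LYD, grown in culture. The groups were differentiated females, differentiated males, undifferentiated females and undifferentiated males, with 2 libraries each, so that each state held 4. The labels give no age, culture medium or time in culture, and do not say whether replicates came from separate animals. Values are FPKM, fragment numbers scaled to transcript length and library size, which allow levels of different genes to be set side by side.

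HMGA1 and HMGA2 are small chromatin proteins that bend AT-rich DNA through short motifs called AT hooks and ease the access of other factors. IGF2BP1, IGF2BP2 and IGF2BP3 bind mRNAs, among them those of IGF2 and MYC, and affect their stability, place and translation. LIN28B binds the precursors of the microRNA let-7 and blocks their maturation, and let-7 in turn represses HMGA2, IGF2BP1 and LIN28B in human and mouse cells. In mouse muscle stem cells, Hmga2 is known to activate Igf2bp2, and both favour proliferation of myoblasts.

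The libraries carried the muscle programme that their labels name. The 5 matched genes of differentiated muscle summed to 11000 to 15970 FPKM in differentiated libraries and to 49.5 to 145.4 FPKM in undifferentiated ones. Of the myogenic markers, MYOD1, DES and CDH15 were matched, with sums of 1202 to 1686 FPKM and 415.5 to 689.7 FPKM. Most of the rise in the sum was DES, at means of 1173 FPKM in differentiated and 262.9 FPKM in undifferentiated cells. MYOD1 went the other way, at 94.8 and 183.7 FPKM. Depth in reads is unknown. From the ratios of low values, the estimated depth was 1 to 1.62 in differentiated libraries and 1.69 to 2.3 in undifferentiated ones, relative to differentiated female replicate 1. Of the 12963 genes that averaged 1 FPKM or more, limma called 50.0% different between the states (Benjamini-Hochberg adjusted p under 0.05), 18.0% higher and 31.9% lower in differentiated cells. The median log2 difference was -0.18. Median-ratio scaling moved that median to 0.0217 and gave 3220 genes higher and 2920 lower, against 2339 and 4137 without it.

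HMGA1 was the most abundant member in every library. It stood at 74.0, 96.6, 126.8 and 108.2 FPKM in differentiated cells (female replicates 1 and 2, then male replicates 1 and 2). In undifferentiated cells it stood at 1032, 1110, 1192 and 1366 FPKM, in the same order. The states did not overlap, and the lowest undifferentiated library was 8.14 times the highest differentiated one. HMGA1 averaged 101.4 ± 22.1 FPKM in differentiated cells and 1175 ± 143 FPKM in undifferentiated cells (SD, n = 4 libraries each). Thus 8.63% of the undifferentiated level was left, a log2 difference of -3.54 ± 0.123 (SE) on the log2(FPKM + 1) scale. By mean level it ranked 936th of the tested genes in differentiated cells and 295th in undifferentiated cells. In bulk cultures, fewer cells that make an mRNA and less of it per cell cannot be told apart.

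HMGA2 was also much lower in differentiated cells, at levels below those of HMGA1 in every library. It stood at 3.74, 1.11, 17.6 and 10.6 FPKM in differentiated cells (female replicates 1 and 2, then male replicates 1 and 2). In undifferentiated cells it stood at 93.8, 75.0, 141.9 and 66.9 FPKM. The states did not overlap, with a factor of 3.8 between the nearest libraries. Its averages were 8.26 ± 7.39 FPKM in differentiated cells and 94.4 ± 33.6 FPKM in undifferentiated cells (SD, n = 4 each). The share left was 8.75%, and the log2 difference was -3.75 ± 0.363 (SE). That share depended on single libraries. It ran from 5.46% without differentiated male replicate 1 to 11.3% without differentiated female replicate 2. Leaving out any 1 library gave 7.91% to 9.41% for HMGA1. In females the HMGA2 mean was 34.8-fold lower in differentiated cells, and in males 7.41-fold lower. The differentiated libraries spanned 15.8-fold for HMGA2 and 1.71-fold for HMGA1. Among all 12963 tested genes, HMGA2 had the 94th largest fall and HMGA1 the 107th. By level, HMGA2 ranked 7376th in differentiated cells and 1072nd in undifferentiated cells.

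A further row with the name HMGA2 spanned 327 bp on chromosome 1, from 212536679 to 212537005, and was described as the HMGA2 mRNA. It was listed at 3.77 FPKM in differentiated male replicate 2 and at 0 in the other 7 libraries. The row used here (ENSSSCG00000000471) lies on chromosome 5 of Sscrofa10.2, from 33376171 to 33516370. How reads were shared between these rows is not given in the sources used here, so the HMGA2 level of that library is uncertain by an unknown amount. HMGA1 (ENSSSCG00000001526) lies on chromosome 7 of the same build, from 34984737 to 34990089.

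IGF2BP2 was expressed in both states and changed far less. Its values were 38.1, 30.4, 46.5 and 47.7 FPKM in differentiated cells (female replicates 1 and 2, then male replicates 1 and 2). In undifferentiated cells they were 48.7, 59.8, 55.6 and 67.4 FPKM. The states did not overlap, though the nearest libraries, differentiated male replicate 2 and undifferentiated female replicate 1, were only 1.02-fold apart. The averages were 40.7 ± 8.07 FPKM in differentiated cells and 57.9 ± 7.82 FPKM in undifferentiated cells (SD, n = 4 each), so that 70.3% was left. The log2 difference was -0.51 ± 0.124 (SE), and 32.0% of the tested genes had a larger fall. After median-ratio scaling it was -0.29, and the states overlapped, at 34.4 to 50.1 FPKM in differentiated cells and 44.7 to 62.8 FPKM in undifferentiated cells. IGF2BP2 (ENSSSCG00000011795) lies on chromosome 13, from 133022540 to 133065865.

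HMGA1, HMGA2 and IGF2BP2 were chosen with this comparison known, so their state differences are given without a test. All 3 had every differentiated library below every undifferentiated one, as did 30.2% of all tested genes, while 17.1% had every differentiated library above every undifferentiated one.

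**Figure D1:**
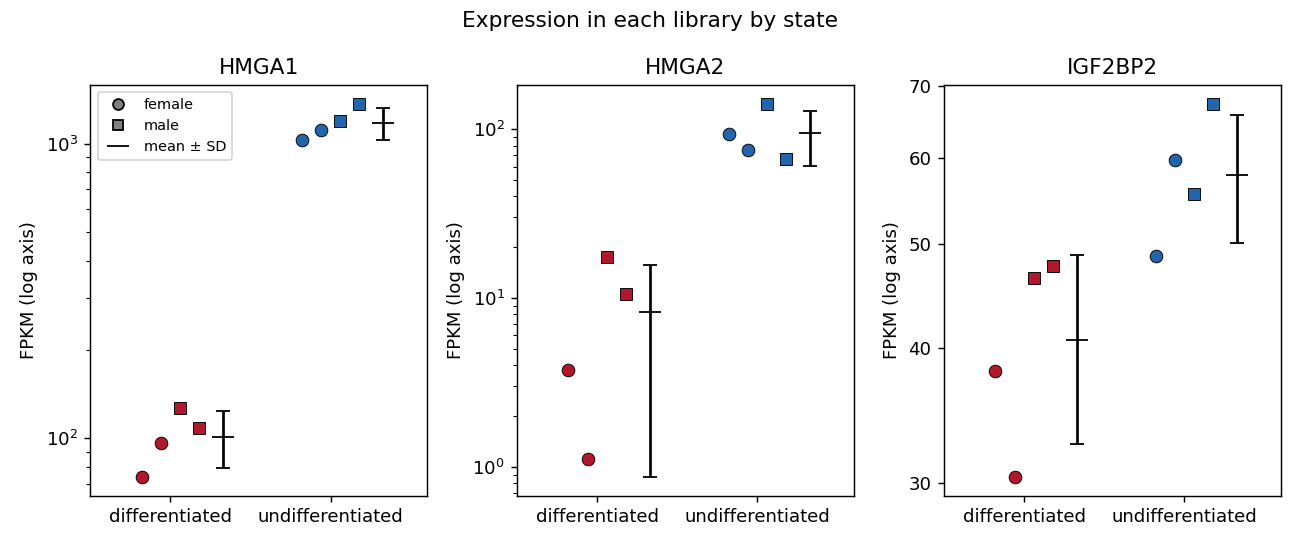
FPKM of HMGA1, HMGA2 and IGF2BP2 on log axes in 4 differentiated libraries (red, left) and 4 undifferentiated libraries (blue, right). Circles are females, squares are males, and bars give the mean ± SD. HMGA2 spans 1.11 to 17.6 FPKM in differentiated cells, while HMGA1 spans 74.0 to 126.8 FPKM.

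LIN28B, the blocker of let-7 maturation, was at or near 0 in both states. It was listed at 0.240 FPKM in differentiated male replicate 2, at 0.193 FPKM in undifferentiated male replicate 2 and at 0 in the other 6 libraries. Corrected for the estimated depth, those 2 values were 1.08-fold apart. LIN28B (ENSSSCG00000004365, chromosome 1, from 80445447 to 80615997) missed the filter on low values and entered no test. Its relative LIN28A was listed at 0.630 FPKM in differentiated female replicate 2, at 0.308 FPKM in differentiated male replicate 1 and at 0.589 FPKM in undifferentiated male replicate 2. The remaining 5 libraries listed LIN28A at 0.

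The row taken for IGF2BP1 (ENSSSCG00000023128, chromosome 12, from 25163100 to 25209807) held 0.159, 0.201, 0.0985 and 0.0637 FPKM in differentiated cells, in the order used above. Of the undifferentiated libraries only female replicate 2 was above 0, at 0.104 FPKM. Corrected for depth, the 4 differentiated values were 1.99, 4.02, 1.99 and 1 times the smallest of them, and the undifferentiated one was 2.93 times. These steps lie near whole numbers of the smallest value. IGF2BP1 was thus seen in more differentiated than undifferentiated libraries, at levels too low for a test, and IGF2BP2 was the abundant one of this pair in every library.

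Setting members against each other shows how their balance differed between the states. HMGA1 was 1.94 to 3.18 times IGF2BP2 in differentiated cells and 18.6 to 21.4 times it in undifferentiated cells. IGF2BP2 was 2.64 to 27.3 times HMGA2 in differentiated cells and 0.392 to 1.01 times it in undifferentiated cells. The ratio of HMGA1 to HMGA2 was 7.21 to 86.8 in differentiated cells and 8.4 to 20.4 in undifferentiated cells, so these ranges overlapped.

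The comparison of females with males, which did not enter the choice of members, gave lower values in females for HMGA1, HMGA2 and IGF2BP2. In differentiated cells both female libraries lay below both male libraries for each of the 3 genes, a pattern that 25.4% of tested genes showed. HMGA2 had 3.74 and 1.11 FPKM in differentiated females and 17.6 and 10.6 FPKM in differentiated males, a log2 difference of -2.21 ± 0.513 (SE, limma adjusted p = 0.298). HMGA1 differed there by -0.47 ± 0.174 (limma adjusted p = 0.384) and IGF2BP2 by -0.46 ± 0.175 (limma adjusted p = 0.389). In undifferentiated cells the sexes overlapped for HMGA2 and IGF2BP2, while both females lay below both males for HMGA1, as for 15.9% of tested genes. The log2 differences were -0.21 for HMGA2, -0.25 for HMGA1 and -0.18 for IGF2BP2 (limma adjusted p = 1 for each).

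Averaged over the states, the difference of females from males was -1.21 ± 0.363 for HMGA2, -0.36 ± 0.123 for HMGA1 and -0.32 ± 0.124 for IGF2BP2 on the log2 scale (SE, limma adjusted p = 0.447, 0.479 and 0.501). By limma 0 of the 3 passed, and 3 of 3 had an unadjusted p under 0.05, in differentiated cells as well as in this average. In undifferentiated cells 0 of 3 reached that unadjusted p. Over all tested genes, limma called 0.0231% higher and 0.0617% lower in females averaged over the states, and 5.92% were lower at an unadjusted p under 0.05. In undifferentiated cells these shares were 0.0309%, 0.0617% and 2.07%. In differentiated cells they were 0.0%, 0.0463% and 8.2%. The state difference of HMGA2 was -4.75 in females and -2.74 in males on the log2 scale. The difference between these was -2.0 ± 0.725 (SE, limma adjusted p = 0.808). By limma 0 of the 3 members passed this test and 1 had an unadjusted p under 0.05, while of all tested genes 0.0154% were called above 0 and 0.00771% below, and 3.75% were below 0 at an unadjusted p under 0.05. With 2 libraries per group the data thus do not separate a sex effect on HMGA2 from the spread between libraries, while they do not show that the sexes are alike. The labels do not say whether replicates came from separate animals. The spread behind these tests may therefore not include that between animals, and sex cannot be told apart from animal or culture.

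Of the cell type lists, only fibroblast markers were also lower in differentiated females by summed FPKM. The 5 fibroblast markers, all matched, summed to 462.7 and 430.7 FPKM in differentiated females and to 1127 and 815.3 FPKM in differentiated males. Differentiated muscle genes went the other way, at 14100 and 15970 FPKM in these females and 11000 and 13020 FPKM in these males, as did the myogenic markers. The sums of the lists for further cell types overlapped between the sexes in differentiated cells. By mean log2 level, however, the pericyte and smooth muscle list was lower in differentiated females (2.93 and 3.09) than in differentiated males (3.75 and 3.29). DCN and LUM, which define fibroblasts, were above 0 in every library, at up to 21.3 and 6.37 FPKM. Between the states the fibroblast sums were 430.7 to 1127 FPKM in differentiated cells and 105.7 to 320.5 FPKM in undifferentiated cells, opposite to the HMGA genes. In undifferentiated cells, too, the sums were lower in females (105.7 and 113.3 FPKM) than in males (320.5 and 172.2 FPKM). Most of each sum was the collagens COL1A1 and COL3A1, which rose. They averaged 406.1 and 290.4 FPKM in differentiated cells and 73.5 and 100.7 FPKM in undifferentiated cells. PDGFRA, DCN and LUM did not pass the test between states (limma adjusted p = 0.0743, 0.154 and 0.0769). The 4 pericyte and smooth muscle markers summed to 997.3 to 1168 FPKM in differentiated cells and 8.91 to 27.6 FPKM in undifferentiated cells, nearly all of it ACTA2, which cultured muscle cells also make. Sums in differentiated and undifferentiated cells were 2.28 to 7.4 and 2.25 to 6.31 FPKM for 3 endothelial markers, at most 4.3 and at most 17.0 FPKM for 4 immune markers, 0.193 to 1.69 and 0 FPKM for the adipocyte markers PLIN1 and LEP, and 2.34 to 3.68 and 4.3 to 7.21 FPKM for 4 Schwann cell markers. Their part in the results was not tested.

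Proliferation genes were lower in differentiated cells together with the HMGA genes. All 13 tested genes of that list fell, where 31.9% of all tested genes were lower. The median log2 difference of the list was -2.27, against -0.18 over all tested genes. CCNA2, cyclin A2 of S phase and mitosis, averaged 5.11 ± 3.95 FPKM in differentiated cells and 42.7 ± 9.01 FPKM in undifferentiated cells (SD, n = 4 each, log2 -2.99, limma adjusted p = 0.000917). TOP2A, the topoisomerase of dividing cells, fell by 2.97 (limma adjusted p = 0.000545). The list summed to 75.3, 73.6, 171 and 80.2 FPKM in differentiated cells and to 576.4, 455.7, 700.8 and 484.5 FPKM in undifferentiated cells (female replicates 1 and 2, then male replicates 1 and 2). In differentiated male replicate 1, 12 of its 13 genes lay above the other 3 differentiated libraries. That library also had the highest HMGA1 and HMGA2 of its state. It had the highest fibroblast marker sum (1127 FPKM) and the lowest sum of differentiated muscle genes (11000 FPKM) of its state as well. Undifferentiated male replicate 1 had the highest HMGA2 and the highest proliferation sum of all 8. HMGA1 was instead highest in undifferentiated male replicate 2, at 1366 FPKM, where the proliferation sum was 484.5 FPKM. Without differentiated male replicate 1 the log2 difference between states was -3.92 for HMGA2 and -3.60 for HMGA1.

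Over the 8 libraries, Pearson's r with the mean log2 level of the proliferation genes was 0.96 for HMGA2, 0.97 for HMGA1 and 0.78 for IGF2BP2. With each state's mean taken away it was 0.80 for HMGA2, 0.53 for HMGA1 and 0.28 for IGF2BP2. The points share their libraries and fall into 2 states, so these values only describe how the genes lie together. Differentiated male replicate 2 had 10.6 FPKM of HMGA2 with a proliferation sum of 80.2 FPKM, while the females with sums of 75.3 and 73.6 FPKM had 3.74 and 1.11 FPKM.

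**Figure D2:**
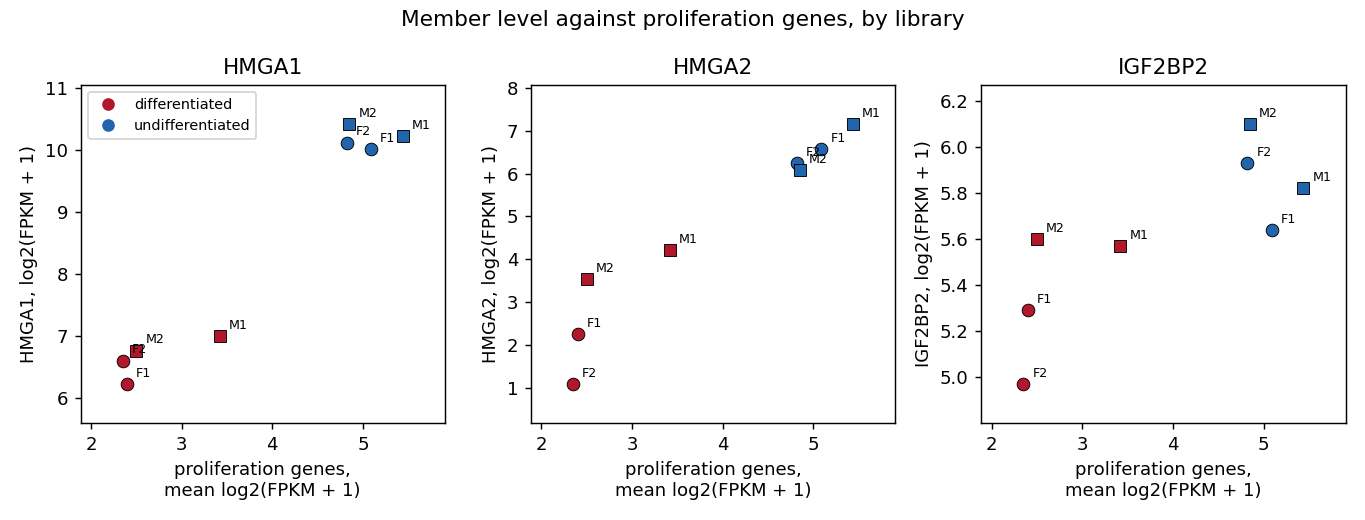
Level of HMGA1, HMGA2 and IGF2BP2 as log2(FPKM + 1) against the mean log2(FPKM + 1) of 13 proliferation genes in each library, differentiated in red and undifferentiated in blue, F and M for sex with the replicate number. Differentiated male replicate 1 has the highest proliferation mean of its state, and for HMGA2 the highest level of its state.

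The genes with the pattern most like that of HMGA2 over the 8 libraries, among 7812 genes with a symbol and a mean of at least 5 FPKM, were DBF4 (r = 0.996), SMEK1 (0.9945), PBK (0.9942), CSTB (0.9941) and ANAPC1 (0.9939). DBF4 activates the kinase that starts DNA replication, PBK is a mitotic kinase and ANAPC1 belongs to the anaphase-promoting complex. PBK averaged 2.56 ± 1.90 FPKM in differentiated cells and 18.8 ± 2.01 FPKM in undifferentiated cells (SD, n = 4 each). The change of SMEK1, a phosphatase subunit, was small, at 41.5 ± 3.84 FPKM in differentiated cells and 53.1 ± 0.474 FPKM in undifferentiated cells, and its call ended under median-ratio scaling (adjusted p = 0.166).

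With the state means taken away, LIX1L (r = 0.9984), VAPB (0.994), PARP8 (0.9881), SEPT7 (0.9876) and GLCE (0.9873) followed HMGA2 most closely. Of these 5, VAPB, SEPT7 and GLCE did not pass the test between states (limma adjusted p = 0.696, 0.744 and 0.131). LIX1L and PARP8 fell (limma adjusted p = 0.00121 and 4.92e-05). HMGA1 was most like PPP1R9B (r = 0.9972), ATP13A3 (0.9964) and SPRY4 (0.9954). SPRY4, a feedback inhibitor of receptor signalling, averaged 6.86 ± 0.805 FPKM in differentiated cells and 74.3 ± 11.8 FPKM in undifferentiated cells (SD, n = 4 each, log2 -3.25, limma adjusted p = 2.59e-05). IGF2BP2 was most like EIF2A (r = 0.9782), RFK (0.9692) and MYCBP2 (0.9684). EIF2A and RFK passed the test narrowly (limma adjusted p = 0.0454 and 0.0419), and each call ended under 11 of the 14 alternatives. These values of r are the highest among 7812 genes over 8 points and are a description.

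Between one another, HMGA1 and HMGA2 had an r of 0.92 over the 8 libraries and 0.51 with the state means taken away. For HMGA2 and IGF2BP2 these were 0.87 and 0.66, and for HMGA1 and IGF2BP2 0.81 and 0.61.

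The other high mobility group genes changed less than HMGA1 and HMGA2, which were chosen with this comparison known. Of 7 tested relatives 4 fell, 0 rose and 3 did not pass (limma), with a median log2 difference of -0.42, against 31.9% lower and a median of -0.18 over all tested genes. HMGN2, which binds nucleosomes, averaged 90.2 ± 8.45 FPKM in differentiated cells and 238.5 ± 30.5 FPKM in undifferentiated cells (SD, n = 4 each, log2 -1.39, limma adjusted p = 0.000477). HMGXB4 fell by 0.83 on the log2 scale (limma adjusted p = 0.0059). With median-ratio scaling 1 member of this list was called higher.

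Of 11 tested genes that make or remove let-7, 2 rose, 3 fell and 6 did not pass, with a median of 0.05. These shares lie near the 18.0% higher and 31.9% lower of all tested genes. TUT4 adds uridines to let-7 precursors bound by LIN28A, which was at most 0.63 FPKM in any library here. TUT4 averaged 60 ± 2.85 FPKM in differentiated cells and 22.3 ± 5.02 FPKM in undifferentiated cells (SD, n = 4 each, log2 1.41, limma adjusted p = 0.000257). AGO2, the slicing Argonaute, rose by 0.53 (limma adjusted p = 0.015). That call was lost without undifferentiated female replicate 1 or undifferentiated male replicate 2 (adjusted p = 0.052 to 0.0538). XPO5, which exports microRNA precursors from the nucleus, fell by 1.36 (limma adjusted p = 0.000188). KHSRP, a protein that aids let-7 processing in human cells, fell by 0.77 (limma adjusted p = 0.00227). With median-ratio scaling, and likewise with quantile normalization, 4 of the list were called higher. The table listed 9 let-7 precursor genes of 80 to 103 bp, all at 0 in every library, so mature let-7 was not measured here.

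Among known let-7 targets outside the group, 8 of 16 tested genes fell, 0 rose and 8 did not pass (limma), with a median of -0.46. Over all tested genes 31.9% were lower and 18.0% higher, with a median of -0.18. CCND1, cyclin D1, averaged 38.8 ± 10.6 FPKM in differentiated cells and 901.6 ± 133.2 FPKM in undifferentiated cells (SD, n = 4 each, log2 -4.53, limma adjusted p = 4.05e-05). CCND2 averaged 83.9 ± 24.2 FPKM in differentiated cells and 506.6 ± 32.8 FPKM in undifferentiated cells (log2 -2.62, limma adjusted p = 0.000227). With median-ratio scaling or quantile normalization 1 of this list was called higher.

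Of mRNAs known to be bound by IGF2BP proteins, 5 of 10 tested fell, 0 rose and 5 did not pass, with a median of -0.37. The shares over all tested genes were 31.9% lower and 18.0% higher, with a median of -0.18. CD44, an adhesion receptor, averaged 59.0 ± 17.6 FPKM in differentiated cells and 331.8 ± 47.2 FPKM in undifferentiated cells (SD, n = 4 each, log2 -2.51, limma adjusted p = 0.0004). MYC, a growth factor-induced transcription factor that is also in the let-7 target list, averaged 45.3 ± 7.45 FPKM in differentiated cells and 161 ± 30.1 FPKM in undifferentiated cells (log2 -1.80, limma adjusted p = 0.000479). IGF2, the namesake growth factor and singled out after its values were seen, stood at 227, 32.3, 168 and 110 FPKM in differentiated cells and at 111, 125, 45.3 and 201 FPKM in undifferentiated cells. Its states overlapped widely (log2 0.03 ± 0.723 SE, limma adjusted p = 0.979).

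Of 9 tested partners of IGF2BP proteins in RNA particles, 6 fell, 0 rose and 3 did not pass, with a median of -0.32, where 31.9% of all tested genes were lower. With median-ratio scaling, and likewise with quantile normalization, 4 of the 9 were called lower. PABPC1, the main cytoplasmic poly(A)-binding protein, averaged 274 ± 66.7 FPKM in differentiated cells and 733.2 ± 50.2 FPKM in undifferentiated cells (SD, n = 4 each, log2 -1.45, limma adjusted p = 0.00024). FMR1, an RNA-binding regulator of translation, fell by 0.90 (limma adjusted p = 0.0143). With median-ratio scaling 1 member of the list was called higher. IGF2BP proteins also read the RNA mark m6A, and of 10 tested writers, erasers and other readers of that mark 1 rose, 2 fell and 7 did not pass, with a median of -0.09, no more than the shares over all tested genes. These 3 calls, ZC3H13 higher and YTHDC2 and WTAP lower, each ended under 9 of the alternatives (adjusted p up to 0.461).

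**Figure D3:**
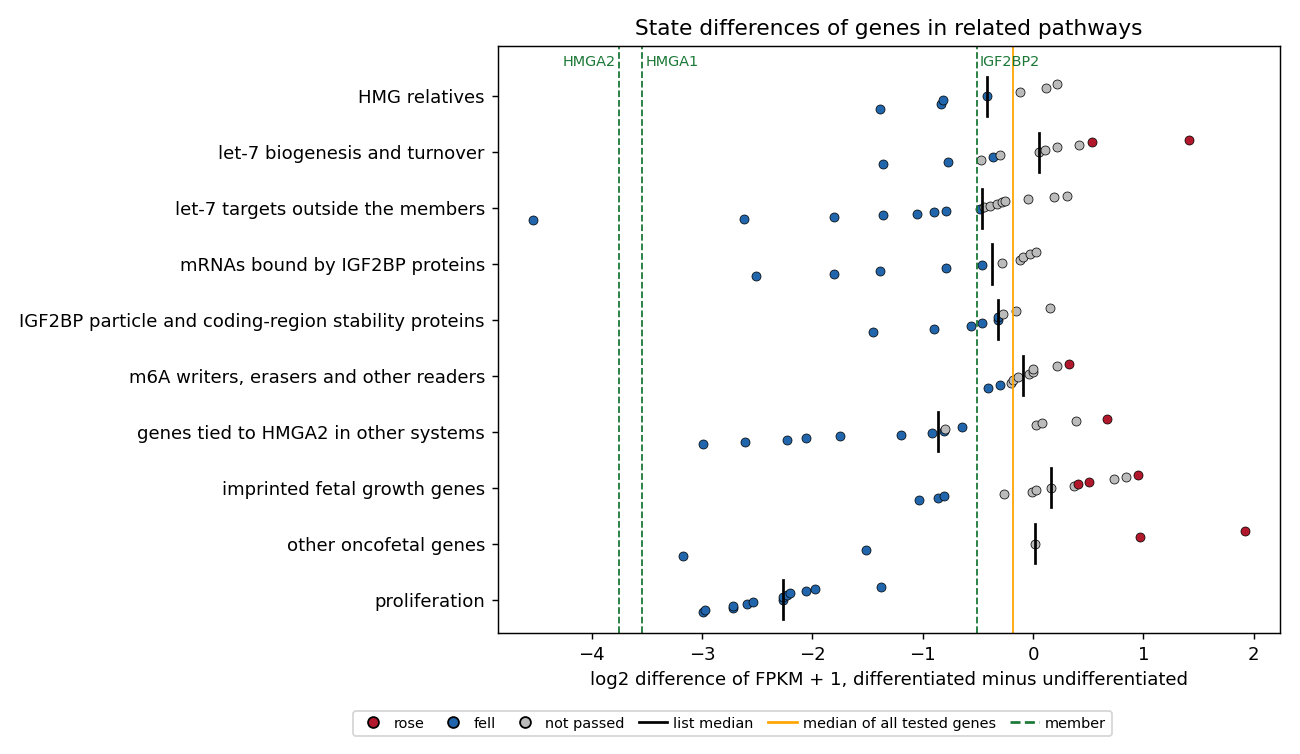
Log2 difference of FPKM + 1, differentiated minus undifferentiated, of each tested gene in 10 lists, coloured by the limma call, with list medians in black and the median of all tested genes (-0.18) in orange. Dashed lines mark HMGA2 (-3.75), HMGA1 (-3.54) and IGF2BP2 (-0.51), and CCND1 at -4.53 is the only list gene below HMGA2. Median-ratio scaling gives 18 list genes called higher, against 9 here.

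Of genes tied to HMGA2 in other systems, 9 of 14 tested fell, 1 rose and 4 did not pass, with a median of -0.86. The list pools ties of any direction, so these counts do not say whether the genes moved as their ties would have it. Over all tested genes 31.9% were lower and 18.0% higher, with a median of -0.18. CCNA2, CCNB2 and E2F1 of this list are also proliferation genes. CDKN2B, an inhibitor of the cyclin D kinases, averaged 6.83 ± 1.84 FPKM in differentiated cells and 47.5 ± 16.3 FPKM in undifferentiated cells (SD, n = 4 each, log2 -2.61, limma adjusted p = 0.000379). RB1, the retinoblastoma protein, rose to 24.9 ± 3.03 FPKM in differentiated cells, against 15.2 ± 0.892 FPKM in undifferentiated cells (log2 0.67, limma adjusted p = 0.00137). The median-ratio and quantile alternatives, and leaving out undifferentiated female replicate 2, each gave 2 genes higher.

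Of 13 tested imprinted genes of fetal growth 3 rose, 3 fell and 7 did not pass, with a median of 0.16, near the 18.0% higher and 31.9% lower of all tested genes. PLAGL1, a zinc finger factor, rose by 0.51 (limma adjusted p = 0.0081), and PEG3 rose by 0.95 (limma adjusted p = 0.0257). The PEG3 call ended with the replicate block and without any 1 of 4 libraries (adjusted p = 0.0545 to 0.0876), namely both differentiated females, undifferentiated female replicate 1 and undifferentiated male replicate 2. IGF2R, the receptor that clears IGF2, fell by 1.03 (limma adjusted p = 0.00377) and SGCE, a sarcoglycan, by 0.86 (limma adjusted p = 0.000827). Median-ratio scaling gave 5 of the list higher. Leaving out differentiated female replicate 1 or 2, undifferentiated female replicate 1 or undifferentiated male replicate 2 gave 1.

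Of 5 tested genes among other oncofetal antigens and factors, 2 rose, 2 fell and 1 did not pass, where 18.0% of all tested genes were higher and 31.9% lower. TPBG, the oncofetal trophoblast glycoprotein, averaged 6.09 ± 5.07 FPKM in differentiated cells and 54.6 ± 12.2 FPKM in undifferentiated cells (SD, n = 4 each, log2 -3.17, limma adjusted p = 0.00166), and CD24 fell by 1.51 (limma adjusted p = 0.00481). GPC3, an oncofetal glypican, rose to 225.6 ± 44.2 FPKM in differentiated cells, against 63.1 ± 25.9 FPKM in undifferentiated cells (log2 1.92, limma adjusted p = 0.00689). SOX11, a factor of embryonic progenitors, rose by 0.97 (limma adjusted p = 0.00438). Members of one oncofetal label thus moved in opposite directions in the same libraries.

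The genes beside the members on their chromosomes were looked at after the values were seen, taking up to 3 tested genes with a symbol on each side within 1 Mb. Around HMGA2, 1 of 5 neighbours rose, 0 fell and 4 did not pass (limma), with a median log2 difference of -0.07. The nearest on either side were LLPH, 203 kb away, at 18.8 ± 2.22 FPKM in differentiated cells and 19.9 ± 2.96 FPKM in undifferentiated cells, and MSRB3, 288 kb away, which rose by 0.75 (limma adjusted p = 0.00361). Around HMGA1, 4 of 6 neighbours fell and 2 did not pass. Over all tested genes 31.9% were lower and 18.0% higher. With 5 or 6 neighbours per member, the counts are too small to be told apart from these shares. SMIM29, on the other strand 0.1 kb past the end of HMGA1, fell to 5.39 ± 1.35 FPKM in differentiated cells, against 16.7 ± 2.64 FPKM in undifferentiated cells (SD, n = 4 each, log2 -1.48, limma adjusted p = 0.000657). Whether the counting used strand is not given in the sources used here, so reads of HMGA1 and SMIM29 near their shared boundary may not be told apart. The falls of RPS10 and LEMD2 were lost with quantile normalization (adjusted p = 0.196 and 0.0724), and that of LEMD2 also with median-ratio scaling (adjusted p = 0.0583). Around IGF2BP2, 1 of 6 neighbours rose, 1 fell and 4 did not pass. Its nearest, SENP2 at 13.9 kb, stood at 21.4 ± 2.37 FPKM in differentiated cells and 17.0 ± 2.03 FPKM in undifferentiated cells (log2 0.31, limma adjusted p = 0.0836).

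**Figure D4:**
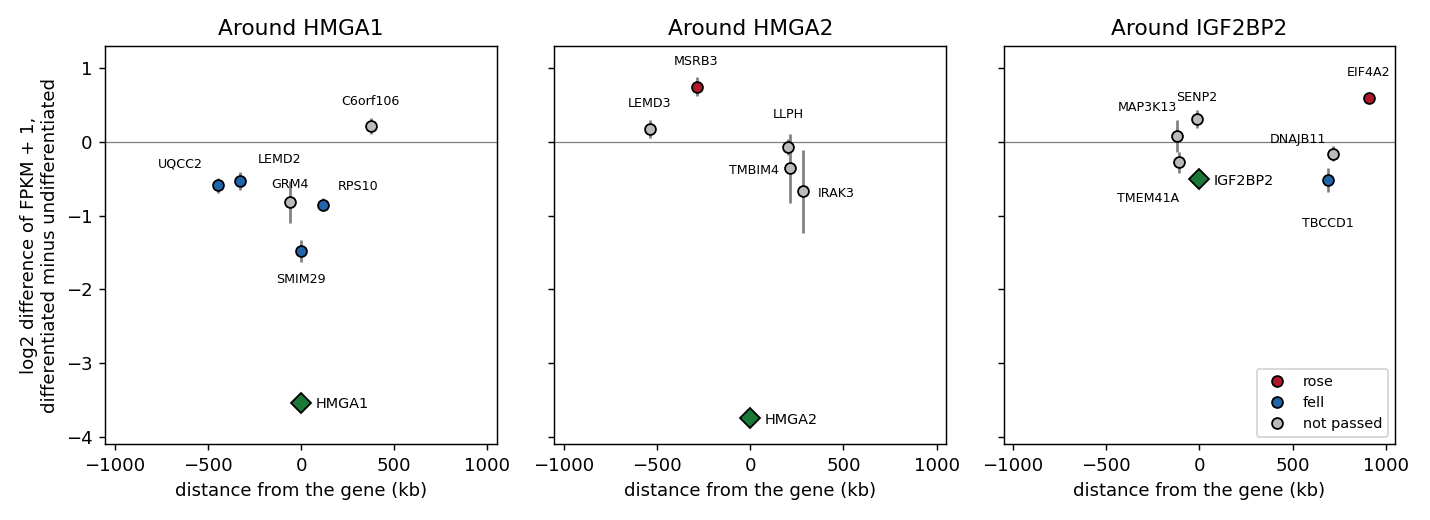
Log2 difference of FPKM + 1, differentiated minus undifferentiated, of HMGA1, HMGA2 and IGF2BP2 (green diamonds) and of their tested neighbours (circles coloured by the limma call, bars ± SE) against distance from the member in kb. HMGA2, which was chosen for its fall, lies at -3.75 and its neighbours lie between -0.67 and 0.75. The fall of TBCCD1 near IGF2BP2 ended under 10 of the alternatives.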

How the data were processed

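RNA was sequenced as 100-bp paired reads with a stranded total RNA kit, per the labels' protocols. The authors deposited FPKM for each library, and the submitters' processing notes name cutadapt 1.6, TopHat2 2.0.12.1, Cufflinks 2.2.1 and Sscrofa10.2, without settings. How many reads stand behind a value is unknown. Depth relative to one library was estimated from the commonest ratio between libraries over 8814 genes with a mean under 0.2 FPKM (largest misfit 0.045 on the log2 scale).

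Symbols came from the table for 16274 genes and from an Ensembl identifier table for 1841. Values were tested as log2(FPKM + 1) for genes averaging 1 FPKM or more, with limma 3.58.1 in R 4.3.3 (1 mean per group, mean-variance trend), checked on simulated data, with Benjamini-Hochberg adjustment over 12963 genes. Fold changes on this scale understate changes of low genes. "Rose" and "fell" mean an adjusted p under 0.05. The members and lists were chosen with earlier results of these data known. Named were all members, up to 2 risen and 2 fallen genes per list, and the genes most like each member. Replicates may be technical. Alternatives were a pseudocount of 0.1, no filter, median-ratio scaling, quantile normalization, genes under 300 bp left out, a replicate block and each library left out.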

Additional observations from a re-analysis of the deposited data

Results flagged for a closer look

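Values were flagged where, among the 4 libraries of a state, the highest or lowest stood far from the rest on the log2(FPKM + 1) scale. Of 100 such sets 10 were flagged, where chance flags about 1 in 20. For genes near the limit of detection the flag is a single library above 0. These were LIN28B in differentiated male replicate 2 (0.240 FPKM) and in undifferentiated male replicate 2 (0.193 FPKM), LIN28A in undifferentiated male replicate 2 (0.589 FPKM), the row taken for IGF2BP1 in undifferentiated female replicate 2 (0.104 FPKM) and the short HMGA2 row on chromosome 1 in differentiated male replicate 2 (3.77 FPKM).

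CCNA2 was flagged in differentiated male replicate 1 (11 FPKM), above the other 3 differentiated libraries. MYC was flagged as low in differentiated female replicate 2 (34.3 FPKM). SOX11 was flagged as low in differentiated male replicate 1 (69.5 FPKM) and in undifferentiated male replicate 2 (39.1 FPKM). PBK was flagged as high in undifferentiated male replicate 1 (21.8 FPKM).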

How the results depend on the processing

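The state differences of HMGA1, HMGA2 and IGF2BP2 kept their sign under all 14 alternatives. Only median-ratio scaling and quantile normalization could have changed it, because the states of these genes did not overlap. Median-ratio scaling gave -3.31 for HMGA1 and -0.29 for IGF2BP2, and quantile normalization gave -3.21 for HMGA1, each further from the value reported than the spread between replicates. List genes called higher numbered 9, against 18 with median-ratio scaling, 15 with quantile normalization and 5 to 10 with 1 library left out (5 without undifferentiated female replicate 1 or undifferentiated male replicate 2). In undifferentiated cells the difference of females from males changed sign for HMGA1 with quantile normalization (0.02), and ranged from -0.75 to 0.32 for HMGA2 with 1 library left out, positive without undifferentiated male replicate 1. The cause was not tested. No member passed a test between the sexes under any alternative. Replicate numbers were shared between states, but deviations of same-numbered libraries correlated at 0.0684 in females and -0.0264 in males, so the numbers were not taken as pairs. The replicate block leaves the state differences of the members unchanged by design (-3.75 for HMGA2). It called 2206 genes higher and 3948 lower. Unknown depth limits what can be said of LIN28B, LIN28A and IGF2BP1.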
